A study of Mus musculus with 6 samples.

Results

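The 10 genes described here encode proteins that package, copy, and transcribe mitochondrial DNA (mtDNA), together with a pair of nuclear factors, NRF1 and GABPA, that switch on nuclear genes for mitochondrial proteins. They are *Tfam* (NM_009360), *Tfb1m* (NM_146074), *Tfb2m* (NM_008249), *Polrmt* (NM_172551), *Polg* (NM_017462), *Polg2* (NM_015810), *Ssbp1* (NM_028358 and NM_212468), *Twnk* (also called *Peo1*, NM_153796), *Nrf1* (NM_001164226 and NM_010938), and *Gabpa* (NM_008065), chosen by name among the 20630 gene symbols measured on the arrays. *Nrf1* here is nuclear respiratory factor 1. RNA came from interscapular brown adipose tissue (iBAT) of 16-week-old male C57BL/6 mice, with 3 control samples and 3 samples of *ob/ob* mice, which lack functional leptin and become obese. Each sample was hybridized to 1 single-dye Agilent array. The labels give the control mice no allele or litter of their own and do not say whether the 3 samples of a group came from separate mice, so the P values measure the spread between these samples, which may be technical.

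Mammalian mtDNA is a small circular genome that encodes a few subunits of the respiratory chain, its own ribosomal RNAs, and tRNAs. All proteins that maintain it are encoded in the nucleus. TFAM coats and bends mtDNA and recruits the mitochondrial RNA polymerase POLRMT, which starts transcription together with TFB2M, whereas TFB1M methylates ribosomal RNA. The replication fork consists of the helicase Twinkle (*Twnk*), the catalytic polymerase subunit POLG with its accessory subunit POLG2, and the single-stranded DNA-binding protein SSBP1. Brown adipocytes are packed with mitochondria, and the coactivators PGC-1α and PGC-1β (*Ppargc1a* and *Ppargc1b*) act through NRF1 and GABPA on the genes of this machinery.

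Because NRF1 and GABPA belong to the set, the promoters of the set were read for their motifs in the RefSeq promoter table (assembly GRCm38.p6), which spans 250 bases before to 50 bases after each annotated start and holds 12 promoters for the 10 genes. The palindromic NRF1 motif, GCGCA followed by any base and GCGC, was found on either strand in 4.60% of all 32851 promoters, and the ETS motif CCGGAAGT, which GABPA binds, in 3.89%. Of the 10 genes, 1 had the NRF1 motif (*Polrmt*) and 3 the ETS motif (*Tfam*, *Polg*, and *Twnk*), and 6 had neither. In *Twnk*, the match lay 111 bases before the second of its annotated starts. For the other 3 genes, 100 bases around the match are shown, with the match in capitals, since they place the motif of a measured factor beside the start of a measured gene. A match of letters is a description and not a binding site.
*Tfam*, chr10:71238045-71238144, minus strand, ETS match 47 bases before the start: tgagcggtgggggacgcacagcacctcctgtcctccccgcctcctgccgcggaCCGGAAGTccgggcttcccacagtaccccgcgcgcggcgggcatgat
*Polg*, chr7:79466274-79466373, minus strand, ETS match 38 bases before the start: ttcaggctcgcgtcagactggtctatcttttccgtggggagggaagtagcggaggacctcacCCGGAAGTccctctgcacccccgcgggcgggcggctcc
*Polrmt*, chr10:79746572-79746671, minus strand, 2 overlapping NRF1 matches, the first 6 bases before the start: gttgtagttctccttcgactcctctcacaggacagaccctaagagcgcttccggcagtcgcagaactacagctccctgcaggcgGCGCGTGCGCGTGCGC

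Signals are given in log2 units after quantile normalization, and a change is the mean of the *ob/ob* arrays minus the mean of the control arrays. The set had 19 probes on the array, of which 18 were well above background on at least 3 of 6 arrays and were tested among 35448 probes, and all 18 were well above background on all 6. A further, dim probe of *Nrf1* was above background on 1 array and was not tested. The 75th percentile of the unnormalized signal differed between arrays, from 94.5 to 291.8. Over the probes tested, the Spearman correlation was 0.964 between control 1 and control 2 and 0.967 between *ob/ob* 1 and *ob/ob* 2, whereas 1 array of each group stood apart from its group. Control 3 had a correlation of 0.944 with *ob/ob* 2 and of 0.642 with control 1, and *ob/ob* 3 had one of 0.858 with control 1 and of 0.488 with *ob/ob* 2. Probes are not independent, and these coefficients only describe the arrays. Whether the labels of control 3 and *ob/ob* 3 are right could not be told from the files, and every group mean and change below follows the labels. The counts of genes and probes are therefore also given without these 2 arrays. Control 1, control 3, and *ob/ob* 1 were read in the same scan, and each other array in a scan of its own.

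To ask whether expression of the mtDNA machinery differed in obese BAT, the 18 probes were compared between groups. None passed an adjusted P under 0.05 in limma, nor did any of the 35448 probes (0% higher and 0% lower), and the methods' t-test called 0 of the 18 as well. At an unadjusted P under 0.05, limma found 0 of the 18 probes, beside 3.51% of all probes, and the methods' t-test found 1, beside 4.27% of all probes. By the brightest probe of each gene, 4 of the 10 genes had lower and 6 higher mean signals in *ob/ob* iBAT, whereas 57.2% of all 19011 genes tested were lower. With scaling to the 75th percentile, 5 of the 10 were lower. The median change was 0.07 over the 10 genes and −0.09 over all genes. With scaling to the 75th percentile, these medians were −0.0058 and −0.31, and the median over all probes moved by −0.26. No change of the 18 probes reached 1 log2 unit, but the arrays limited what could be seen. For 17 of the 18 probes, the 95% interval of the change reached beyond 1 log2 unit in at least 1 direction, and the standard errors ranged from 0.31 to 1.18 log2 units.

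**Figure D1:**
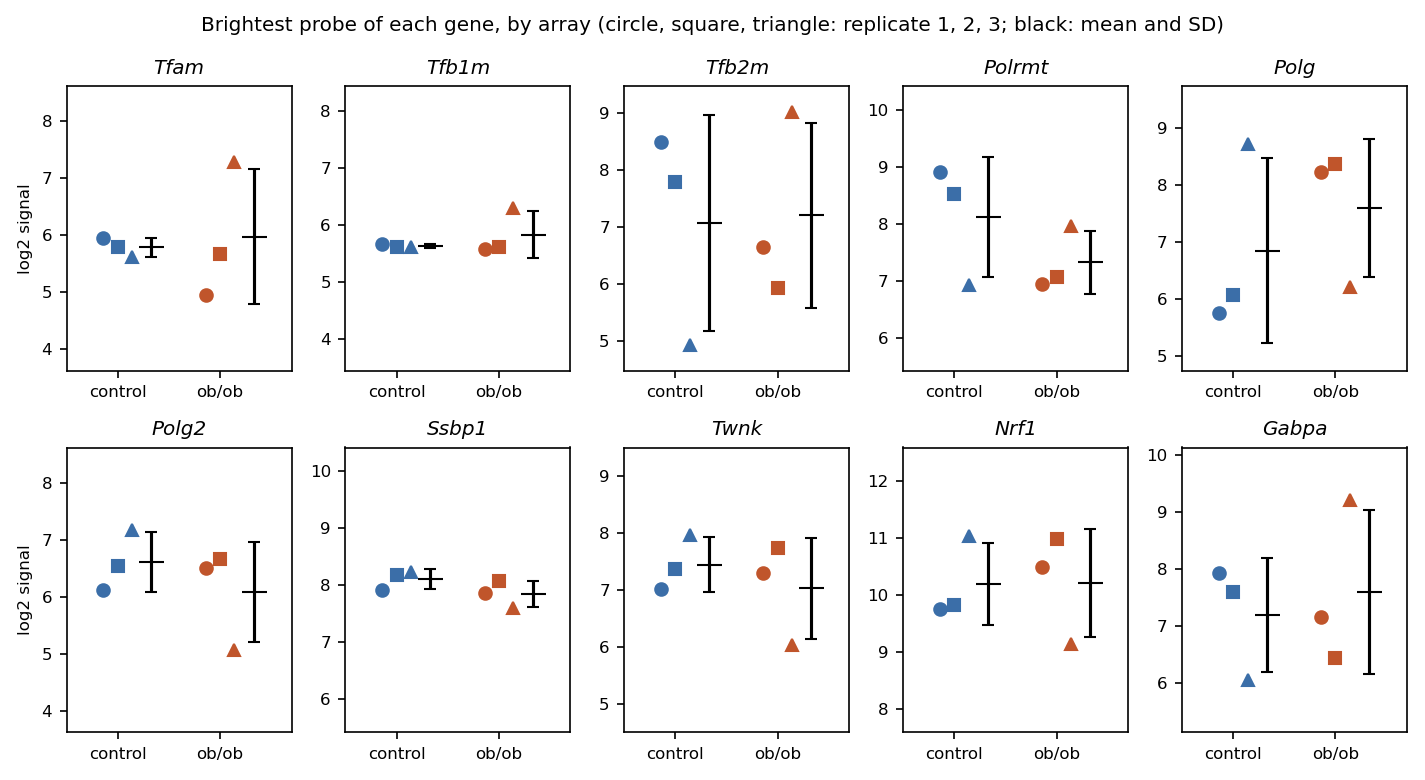
Quantile normalized log2 signal (y axis, 5 log2 units in each panel) of the brightest probe of each gene on the 3 control and 3 *ob/ob* arrays (x axis), with circles, squares, and triangles for replicates 1, 2, and 3 and the mean ± SD in black. The groups overlap in all 10 panels, and the triangles of control 3 and *ob/ob* 3 lie at opposite ends in 6 of them.

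Among the factors that start transcription, *Tfam*, the packaging protein and activator, was 5.95, 5.79, and 5.61 on control arrays 1, 2, and 3, against 4.96, 5.67, and 7.27 on *ob/ob* arrays 1, 2, and 3, and values of other genes follow in the same order. The controls lay close together, and the *ob/ob* arrays spread on both sides of them, with the highest value of all in *ob/ob* 3. The change was 0.18 (standard error 0.62, adjusted P = 1.0, limma). Its second probe was 5.92, 5.37, and 4.84 on the control arrays against 5.28, 5.0, and 7.65 on the *ob/ob* arrays. It too had its highest value in *ob/ob* 3, with a change of 0.60 (standard error 0.77). The dimmest of its 3 probes varied by 0.46 log2 units over all 6 arrays and had a change of 0.05, or −0.35 with scaling to the 75th percentile. Without *ob/ob* 3, the change of *Tfam* turned to −0.47 for the brightest probe and to −0.24 for the second.

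*Polrmt*, the RNA polymerase itself, was 8.93, 8.53, and 6.93 on the control arrays against 6.96, 7.07, and 7.97 on the *ob/ob* arrays. Control 1 and control 2 lay above every *ob/ob* array, and control 3 lay below all of them. The change was −0.79 (standard error 0.62, exact permutation test, two-sided, P = 0.40, where 3 samples against 3 cannot go below 0.10). It stayed negative under each of the 17 alternative settings, but several of these, such as other detection filters and the methods' t-test, cannot change it. Its size rested on single arrays, at −0.40 without control 1 and −1.39 without control 3.

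*Tfb2m*, the factor that opens the promoter for POLRMT, was 8.50, 7.80, and 4.92 on the control arrays against 6.65, 5.93, and 9.02 on the *ob/ob* arrays. The lowest array was control 3 and the highest *ob/ob* 3, a distance of 4.10 log2 units, the widest of the 18 probes. The group means were 7.07 ± 1.89 (SD, n = 3) and 7.20 ± 1.62 (SD, n = 3), a change of 0.13 with a standard error of 1.18, which turned to −0.94 without control 3 and to −0.78 without *ob/ob* 3. *Tfb1m*, its paralog that methylates ribosomal RNA, was by contrast nearly flat, at 5.66, 5.61, and 5.62 on the control arrays against 5.57, 5.62, and 6.30 on the *ob/ob* arrays. Apart from *ob/ob* 3, the arrays of *Tfb1m* lay within 0.1 log2 units of each other, and the change was 0.20 (standard error 0.34), or −0.044 with scaling to the 75th percentile.

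For the replication fork, *Polg*, the catalytic subunit, was 5.77, 6.07, and 8.72 on the control arrays against 8.23, 8.37, and 6.21 on the *ob/ob* arrays by its brightest probe. The order was the reverse of that of *Polrmt*, with control 1, control 2, and *ob/ob* 3 low and the other arrays high. The change was 0.75 (standard error 0.97), and it was 0.21 without control 1, 1.68 without control 3, and 0.40 with scaling to the 75th percentile. The second probe of *Polg* was 6.27, 6.40, and 5.61 on the control arrays against 5.41, 5.54, and 6.25 on the *ob/ob* arrays, a change of −0.36 (standard error 0.40). The same 3 arrays that were low with the first probe were high with the second, although both probes carry the same RefSeq accession, and which of them follows the *Polg* transcript was not tested.

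*Polg2*, the accessory subunit that holds the polymerase on DNA, was 6.13, 6.55, and 7.18 on the control arrays against 6.52, 6.66, and 5.08 on the *ob/ob* arrays, a change of −0.53 (standard error 0.55). The second probe of the same accession was 6.85, 6.04, and 4.59 on the control arrays against 4.30, 4.37, and 7.28 on the *ob/ob* arrays, a change of −0.51 (standard error 0.99). The changes of both were alike, but the arrays were not, since *ob/ob* 3 was the lowest array with the first probe and the highest with the second. *Twnk*, the helicase, was 7.01, 7.37, and 7.96 on the control arrays against 7.30, 7.74, and 6.04 on the *ob/ob* arrays. Only *ob/ob* 3 lay below the controls, the change was −0.42 (standard error 0.54), and without that array it was 0.07.

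*Ssbp1*, which covers single-stranded mtDNA at the fork, was the steadiest of the 10 genes by its brightest probe, with 7.92, 8.19, and 8.23 on the control arrays against 7.87, 8.07, and 7.61 on the *ob/ob* arrays. The change was −0.26 (standard error 0.31), and its 95% interval was −1.02 to 0.50. The second probe was 6.12, 6.24, and 7.58 on the control arrays against 7.64, 7.86, and 5.92 on the *ob/ob* arrays, again with control 3 beside *ob/ob* 1 and *ob/ob* 2. Another probe, designed to another *Ssbp1* accession (NM_212468), was 5.24, 5.04, and 5.58 on the control arrays against 6.00, 5.82, and 5.90 on the *ob/ob* arrays. It was the 1 probe of the 18 whose groups did not overlap, beside 7.92% of all probes tested, or 3.74% when only probes higher in *ob/ob* iBAT are counted. Its change was 0.62 (standard error 0.32, unadjusted P = 0.0934, adjusted P = 1.0, limma), and it was 0.25 with scaling to the 75th percentile.

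**Figure D2:**
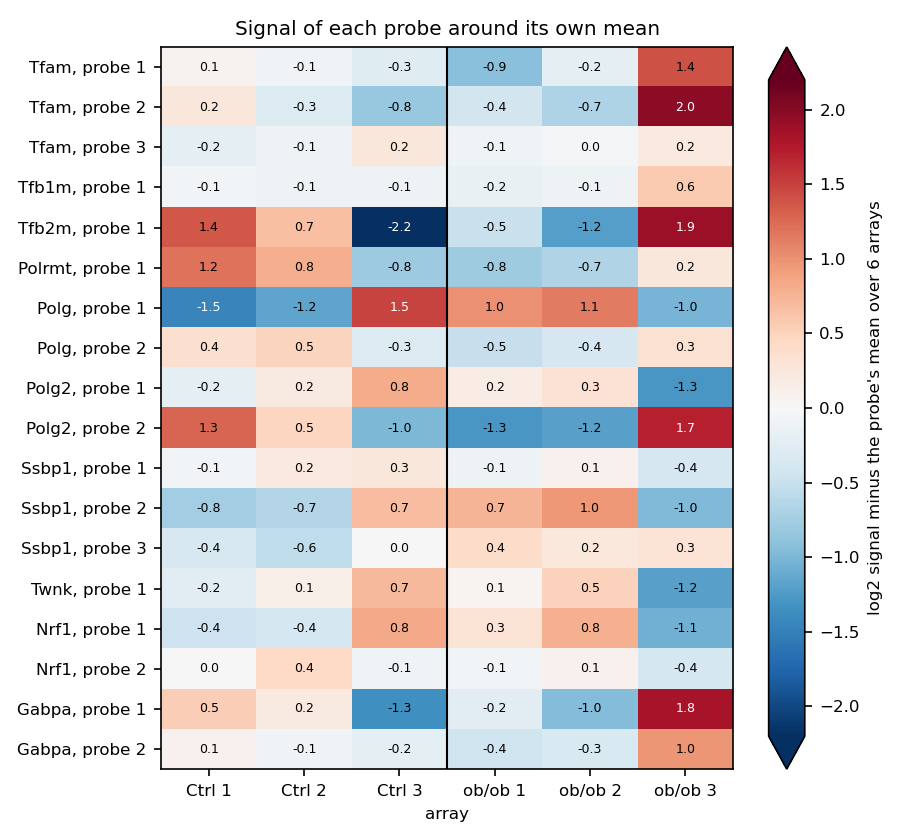
Log2 signal of each of the 18 probes minus its own mean over the 6 arrays (color and printed value), with arrays on the x axis, probes on the y axis in order of brightness within a gene, and a line between the control and *ob/ob* arrays. Rows such as *Tfb2m* and the second *Polg2* probe are high in control 1, control 2, and *ob/ob* 3, and rows such as the first *Polg* and second *Ssbp1* probes are high in the other arrays.

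*Nrf1*, the nuclear activator, was 9.76, 9.82, and 11.04 on the control arrays against 10.50, 10.99, and 9.15 on the *ob/ob* arrays. Here the group means were nearly equal, with a change of 0.01 (standard error 0.62), and the highest array was control 3 and the lowest *ob/ob* 3. The second probe of *Nrf1* was steadier, with a range of 0.82 log2 units over the 6 arrays and a change of −0.23 (standard error 0.33). *Gabpa*, the DNA-binding subunit of the ETS factor GABP, was 7.94, 7.60, and 6.06 on the control arrays against 7.16, 6.44, and 9.22 on the *ob/ob* arrays, so that its extremes were the reverse of those of *Nrf1*. The change was 0.41 (standard error 0.85), and it turned to −0.16 without control 3 and to −0.40 without *ob/ob* 3. The dimmer *Gabpa* probe had a change of 0.13 (standard error 0.47), or −0.10 with scaling to the 75th percentile.

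Over the 18 probes, *ob/ob* 3 was the highest array for 7 and the lowest for 6, and control 3 the highest for 6 and the lowest for 4. The median range over the 6 arrays was 1.92 log2 units for the 18 probes and 1.67 for all probes. Of the 6 genes with several probes tested, 3 had probes with changes of both signs (*Polg*, *Ssbp1*, and *Nrf1*). In the 1 scan that held several arrays, the differences of the brightest probes ranged from −0.97 for *Polrmt* to 0.99 for *Polg*, each from *ob/ob* 1 against control 1 and control 3, and that of *Tfam* was −0.83.

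Without control 3 and *ob/ob* 3, limma called 9 of the 18 probes at an adjusted P under 0.05, beside 45.9% of all probes. Since these arrays were left out for their resemblance to the other group over all probes, these calls are not independent of that choice. In this comparison of 2 against 2 arrays, the called decreases were in *Tfb2m* (−1.86), *Polrmt* (−1.71), *Gabpa* (−0.97), and the second probes of *Polg2* (−2.11) and *Polg* (−0.86). The called increases were in the first probe of *Polg* (2.38), both dimmer probes of *Ssbp1* (1.57 and 0.78), and the first probe of *Nrf1* (0.95). The probes of *Polg* thus went opposite ways here too. The brightest probe of *Tfam* had a change of −0.56 (adjusted P = 0.155, limma), *Tfb1m* one of −0.04, and *Twnk* one of 0.33, and none of these was called.

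**Figure D3:**
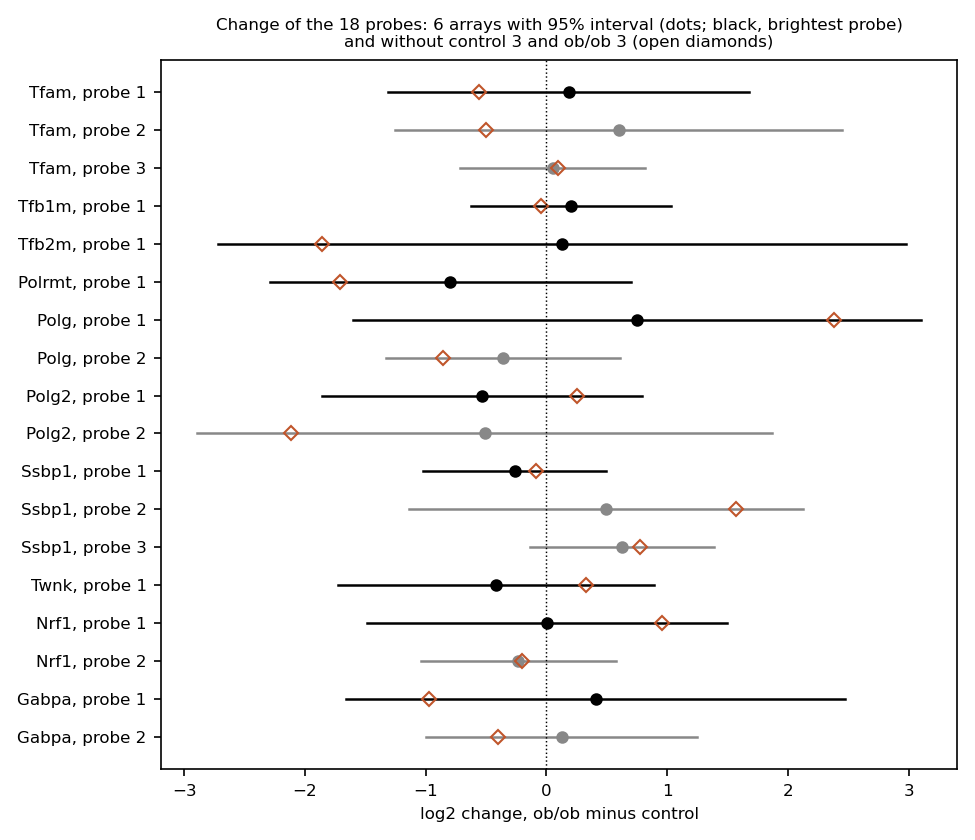
Log2 change of the 18 probes (x axis, *ob/ob* minus control; probes on the y axis) over all 6 arrays, with dots and lines for the estimate and its 95% interval, black for the brightest probe of a gene, and open diamonds for the change without control 3 and *ob/ob* 3. All 18 intervals hold 0, and the diamonds run from −2.11 to 2.38.

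Other genes that act on mtDNA and its RNA were read from lists written from general knowledge, by the brightest probe. Of 12 further genes of mtDNA replication and repair, 7 were higher and 5 lower (median 0.35), and 0 passed an adjusted P under 0.05. Without control 3 and *ob/ob* 3, 7 of the 12 were lower (median −0.20), where the median of all genes was 0.07. *Top3a*, a topoisomerase that separates linked mtDNA circles, was 6.53 ± 0.36 (SD, n = 3) in the controls and 7.04 ± 0.18 (SD, n = 3) in the *ob/ob* samples. Its groups did not overlap, as for 8% of all genes. The change was 0.52 (standard error 0.34), or 0.33 with scaling to the 75th percentile. The primase-polymerase *Primpol* was dim, at 3.69, 3.42, and 4.10 on the control arrays against 4.36, 4.49, and 5.39 on the *ob/ob* arrays. It was not well above background in any control array and passed the detection filter only through the *ob/ob* arrays. It is counted among the 7 higher genes, but no test result is read from it. Of 11 genes of mitochondrial nucleotide supply, 7 were higher and 4 lower (median 0.06), with *Sucla2*, a subunit of succinyl-CoA ligase, at 0.66 (standard error 0.38), and *Cmpk2*, a nucleotide kinase, at −0.26 (standard error 0.29). For neither gene did the groups overlap, as for 8% of all genes. Without those 2 arrays, 7 of the 11 were lower (median −0.18).

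Of 6 genes listed under mitochondrial transcription elongation and termination (*Tefm* and members of the *Mterf* family), 5 had lower mean signals (median −0.32). Their changes ran from −0.49 for *Mterf3* to 0.66 for *Mterf2*, and 0 passed. Without control 3 and *ob/ob* 3, 4 of the 6 were lower (median −0.82). Of 16 genes of mitochondrial RNA processing and stability, 8 were lower and 8 higher (median −0.00), from −1.25 for *Fastk*, which stabilizes a mitochondrial mRNA, to 1.15 for *Trmt10c*, a subunit of mitochondrial RNase P, and without those arrays 11 of the 16 were lower (median −0.67). The 21 textbook target genes of NRF1 and GABPA, most of them respiratory chain subunits, had 11 lower and 10 higher (median −0.07), from −1.64 for *Cox7a2* to 1.14 for *Tomm20*. This even split did not hold without control 3 and *ob/ob* 3, where 19 of the 21 were lower (median −1.59). In that fit, 6 of the 10 genes of the mtDNA machinery were lower (median −0.06), and the median of all genes was 0.07. The median of the 10 genes joined called decreases and called increases. As the 2 arrays were left out for their resemblance to the other group, these counts are not independent of that choice. The 13 mRNAs encoded by mtDNA itself, whose levels depend on this machinery, were not analyzed here.

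Of 10 partners and coactivators of NRF1 and GABPA, 5 were lower and 5 higher, and 9 were lower without control 3 and *ob/ob* 3 (median −1.07). With all arrays, 2 had an unadjusted P under 0.05 in limma, beside 3.73% of all genes. These were the coactivators. *Ppargc1a* was 10.06, 9.99, and 7.59 on the control arrays against 5.81, 5.53, and 7.58 on the *ob/ob* arrays, a change of −2.91 (standard error 0.87, adjusted P = 1.0). *Ppargc1b* was 9.95, 9.98, and 8.04 on the control arrays against 5.31, 4.87, and 6.53 on the *ob/ob* arrays, a change of −3.75 (standard error 0.70, adjusted P = 1.0). Every *ob/ob* array lay below every control array for both, although by little between control 3 and *ob/ob* 3 for *Ppargc1a*. The groups did not overlap, in either direction, for 8% of all genes.

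**Figure D4:**
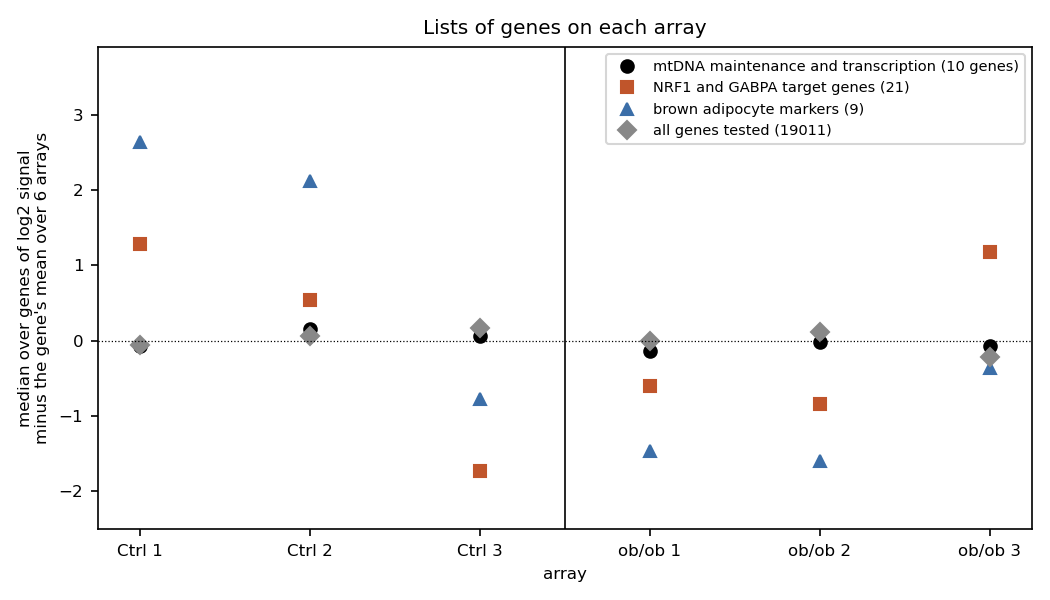
Median over the genes of a list of the log2 signal minus each gene's mean over the 6 arrays (y axis), by array (x axis), for the 10 genes, the 21 target genes of NRF1 and GABPA, 9 brown adipocyte markers, and all 19011 genes. The medians of the 10 genes lie between −0.14 and 0.16, those of the target genes between −1.73 and 1.28, and those of the brown adipocyte markers are highest in control 1 and control 2.

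The labeled tissue was checked against 9 brown adipocyte markers, of which all 9 were well above background on all control arrays and 7 on all *ob/ob* arrays. All 9 had lower mean signals in *ob/ob* iBAT (median −2.32, and −3.91 without control 3 and *ob/ob* 3). In limma, 3 had an unadjusted P under 0.05 (*Elovl3*, *Adrb3*, and *Zic1*), beside 3.73% of all genes, and 0 passed an adjusted P under 0.05. *Elovl3* was not well above background on any *ob/ob* array. It passed the detection filter only through the control arrays, so its P value is not read as a test. Their summed signal was 12.8 to 16.6 log2 units in the controls and 12.1 to 13.6 in the *ob/ob* samples. In bulk tissue, fewer brown adipocytes and less RNA per brown adipocyte cannot be told apart. The summed signal of 8 skeletal muscle markers was 11.7 to 15.3 in the controls and 9.06 to 16.3 in the *ob/ob* samples, highest in *ob/ob* 3. That of 9 macrophage markers was 12.2 to 13.9 in the controls and 11.8 to 12.4 in the *ob/ob* samples. The brightest macrophage marker, which weighs most in the sum, had a change of −1.43, but 7 of the 9 were higher and 2 lower (median 0.53). The 6 endothelial markers summed to 12.7 to 13.3 and 11.9 to 12.6, without overlap, but by little between control 3 (12.671) and *ob/ob* 2 (12.645). For each endothelial marker alone the groups overlapped, with 5 lower and 1 higher in mean signal. The sums of 7 white adipocyte, 6 lymphocyte, and 4 erythroid markers overlapped between groups. The part of these cells in the signals of the 10 genes was not tested.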

How the data were processed

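RNA of iBAT was hybridized with 1 Cy3 dye to 6 Agilent arrays. Per the file headers, the authors read the images with Agilent Feature Extraction (version 11.0.1.1), and the deposited intensity of each spot was corrected for background within the array and not normalized between arrays. The authors also deposited log2 values that were quantile normalized in GeneSpring, whose correlation with each array's own scanner signal was 0.987 to 0.998. They were used as an alternative, with their centering unknown. Differences in signal range between arrays are removed by quantile normalization, which assumes like distributions of signal.

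Control spots and spots with an outlier flag were left out, and 104 of 39429 probes lost all spots on some array. No spot was saturated. Spots of a probe were averaged in log2 units and quantile normalized. A probe was detected where at least 0.5 of its spots lay well above background, and detection on at least 3 of 6 arrays was required, as in the study's methods. Of 28684 RefSeq probes, 27234 were named through RefSeq accessions (assembly GRCm38.p6). The array's grid uses another build, and coordinates are given for RefSeq promoters only. Tests used limma (version 3.58.1) in R (version 4.3.3) with P values adjusted over the 35448 probes by Benjamini-Hochberg, and an exact permutation test for single values (scipy, version 1.17.1). Lists and figures were made in Python (version 3.11.15) with pandas (2.3.3) and matplotlib (3.10.9). Before use, the fit was tested on simulated data.

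The 10 genes and all lists were chosen with earlier results of these data known. Named from the lists are genes with an unadjusted P under 0.05 or without overlap between groups, or else the highest and lowest change. For marker lists, sums are given, and names only for brown adipocytes. Alternatives were the 75th percentile, normexp on the median spot signal (offset 50), the authors' values, other detection filters, the methods' t-test, an intensity trend with robust estimation, the replicate number or the scan as a block, the mean of a gene's probes, leaving out each array, and leaving out control 3 and *ob/ob* 3.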

Additional observations from a re-analysis of the deposited data

How the results depend on the processing

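None of the 18 probes passed an adjusted P under 0.05 under any alternative except without control 3 and *ob/ob* 3 together, which called 9 of 18. Scaling to the 75th percentile moved the median change of all probes by −0.26 log2 units. The number of the 10 genes with lower mean signals, 4 in the main setting, was 5 with the 75th percentile and 6 with normexp. The median change of the 10 genes was −0.0058 and −0.075 in these settings. The number was 7 with the scan as a block, which rests on 3 arrays, and 5 to 7 when arrays were left out, with 7 without *ob/ob* 3. When arrays were left out, the median change of the 10 genes was −0.16 to 0.10.

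*Polrmt* and *Polg* kept the sign of their change under all 17 alternatives, and the sign turned under at least 1 for each of the other genes. The detection filters, the t-test, the intensity trend, and the replicate block left each change as it was, so they could not turn a sign. For *Polrmt*, with its single probe, this also holds for the mean of a gene's probes. With the scan as a block, the change was −0.83 for *Tfam*, −0.069 for *Tfb1m*, and −0.061 for *Tfb2m*. With normexp, it was −0.066 for *Tfb2m* and −0.084 for *Nrf1*, and with the 75th percentile it was −0.044 for *Tfb1m*. With the mean of a gene's probes, it was 0.28 for *Ssbp1* and −0.11 for *Nrf1*. The cause was not tested. When arrays were left out, *Tfam* ranged from −0.56 to 0.69, *Tfb1m* from −0.044 to 0.33, *Tfb2m* from −1.86 to 0.84, *Polg2* from −0.82 to 0.25, *Twnk* from −0.78 to 0.33, *Nrf1* from −0.38 to 0.95, and *Gabpa* from −0.97 to 0.99. *Polrmt* ranged from −1.71 to −0.40, *Polg* from 0.21 to 2.38, and *Ssbp1* from −0.37 to −0.08.

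For samples with the same replicate number, the correlations of their deviations from the group means were −0.78, −0.66, and −0.85. The array that stood apart in each group also moved its group mean, and with it every deviation from that mean. These correlations therefore cannot tell whether samples with the same number were paired. With the replicate number as a block, 0 of the 18 probes passed, as without it, the median change was 0.07 in both fits, and probes with an unadjusted P under 0.05 fell from 1245 to 359. The arrays carry no counts, and their number limits the precision.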

Other observations

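The genes closest to *Tfam* in profile were *Snw1*, *Tmem18*, *Arhgap44*, *Cyb5r1*, and *Tgfb2*, with root mean square differences of 0.127, 0.131, 0.144, 0.146, and 0.153 log2 units over the 6 arrays, after each gene was centered on its own mean. All 5 had their lowest signal in *ob/ob* 1 and their highest in *ob/ob* 3, as *Tfam* did, which follows from choosing them by closeness over the same arrays. The profile is that of the brightest *Tfam* probe. The second *Tfam* probe was lowest in control 3, and the dimmest was highest in control 3. Among 15884 genes detected on all arrays, the closest of the other 9 genes of the mtDNA machinery was *Tfb1m* (rank 1147, difference 0.467), followed by *Gabpa* (rank 3120) and *Polrmt* (rank 4867), and the farthest was *Polg* (rank 14803). The probe of *Nrf1* that was not tested had signals between 3.70 and 4.25 log2 units on the 6 arrays.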
